A study of Mus musculus with 24 samples.

Results

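Peroxisomes are small organelles that shorten very long chain, branched and dicarboxylic fatty acids, which mitochondria do not take directly. The 9 genes described here encode parts of that route: Abcd2 and Abcd3, transporters that bring acyl-CoAs across the peroxisomal membrane; Ehhadh and Hsd17b4, bifunctional enzymes that hydrate and dehydrogenate the chain; Acaa1a and Acaa1b, thiolases that release acetyl-CoA; Ech1, a dienoyl-CoA isomerase that serves unsaturated chains in peroxisomes and mitochondria; Crot, which passes medium chains to carnitine for export; and Pex11a, a membrane protein that promotes peroxisome division. They were chosen by gene symbol for these roles, with earlier results of these data known, and all 9 of 9 were found among the 19937 genes measured, each by 1 probe set. Acaa1a and Acaa1b are close copies of each other, so hybridisation of 1 transcript to both probe sets is possible and their values are uncertain to that extent.

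The arrays measured total RNA of cultured keratinocytes, the epithelial cells of the skin, taken directly from mice labelled as strain C57/BL6. The cells were either wild-type or null for Ppar-beta (Ppard, a nuclear receptor that fatty acids activate and that pairs with RXR on DNA). In each genotype the cells, cultured for 2 days, were mock transduced or transduced with a retrovirus encoding activated Hras, read after 48 hours. Each of these was given DMSO as vehicle or 1 uM GW0742, a synthetic Ppar-beta agonist, for 24 hours, which made 8 groups of 3 arrays, 24 in all. Whether the 3 arrays of a group came from separate cultures or mice is not said in the labels. The p-values therefore reflect how far arrays of the same group lay apart, taken over all 8 groups, which may be technical spread.

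In rodent liver, agonists of the related receptor Ppara are textbook inducers of Ehhadh, Acaa1 genes and Pex11a, and they make peroxisomes multiply. Ppar-beta binds the same kind of DNA element, a direct repeat of AGGTCA with 1 base between the copies. In these keratinocytes Ppara measured between 6.16 and 6.29 log2 units in all 8 groups, with no comparison passing the test. Pparg measured between 7.09 and 7.82. With Hras it was higher in wild-type DMSO (log2 difference 0.33), null DMSO (0.23) and null GW0742 cells (0.42). It was also higher in null than in wild-type cells in mock DMSO (0.31), Hras DMSO (0.21) and Hras GW0742 cells (0.43). These passed the test, and no GW0742 effect on Pparg did.

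The 250 bases before the annotated start are shown for Abcd3 and Ech1, which rose with GW0742, and for Ehhadh, the textbook liver target, which did not pass with it, so that genes of unlike response can be compared. Capitals mark the GC box GGGCGG or its reverse complement CCGCCC, a common promoter element. Sequences are from RefSeq, build GRCm38.p6, written 5′ to 3′ on the strand of the gene. The positions are chr3:121815303-121815552 on the minus strand for Abcd3 (the more upstream of its 2 listed starts), chr7:28825088-28825337 on the plus strand for Ech1 and chr16:21787835-21788084 on the minus strand for Ehhadh.
Abcd3: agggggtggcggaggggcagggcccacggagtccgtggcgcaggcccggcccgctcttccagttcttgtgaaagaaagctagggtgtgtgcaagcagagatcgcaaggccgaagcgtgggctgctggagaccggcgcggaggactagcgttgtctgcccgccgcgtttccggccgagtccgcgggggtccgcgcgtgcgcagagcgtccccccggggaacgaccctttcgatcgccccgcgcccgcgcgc
Ech1: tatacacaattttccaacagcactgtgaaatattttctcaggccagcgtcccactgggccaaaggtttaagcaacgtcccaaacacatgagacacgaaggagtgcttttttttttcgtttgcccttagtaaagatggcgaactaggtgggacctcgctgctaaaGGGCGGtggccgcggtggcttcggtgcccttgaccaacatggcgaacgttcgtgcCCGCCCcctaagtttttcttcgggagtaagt
Ehhadh: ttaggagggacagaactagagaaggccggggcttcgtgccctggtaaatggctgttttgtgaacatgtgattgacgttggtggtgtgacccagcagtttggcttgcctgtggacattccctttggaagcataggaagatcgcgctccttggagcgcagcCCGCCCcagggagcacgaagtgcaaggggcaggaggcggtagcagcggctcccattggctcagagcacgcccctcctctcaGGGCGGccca
The Ech1 and Ehhadh windows each held 2 GC boxes and the Abcd3 window held 0. The GC content of the 250 bases was 72.0% for Abcd3, 51.2% for Ech1 and 60.4% for Ehhadh, against a median of 52.4% over all windows. Of the 9 genes, 7 had an entry, with 8 windows in all. None of these 8 windows, read over 300 bases on both strands, held the direct repeat described above, a looser repeat with any base at the fourth place of each copy, or a single AGGTCA. Over all 32851 windows of that length, 0.0396% held the repeat, 0.381% the looser repeat and 16.3% a single AGGTCA, which every exact repeat also contains. The GC box was in 32.7% of all windows of 250 bases. A match or its lack describes these letters in this window only.

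Each change is given as a difference in log2 units with its standard error, from 1 limma model of all 24 arrays, with p-values adjusted by the Benjamini-Hochberg method over the 19937 genes, and a gene is said to rise or fall where the adjusted p was under 0.05. Array medians lay between 7.46 and 7.53 log2 units, and 3 arrays per group limit the precision. Spread was widest in null Hras cells given GW0742, with a median SD over genes of 0.122 against 0.0647 to 0.0798 in the other groups. Ppard, the targeted gene, read lower in the null arrays in all 4 conditions, by between -0.57 ± 0.06 and -0.28 ± 0.06, with null means of 10.62 to 11.36. The deleted exons are not named in the labels, and if the probe set lies elsewhere in the gene it says nothing about the deletion. All 10 keratinocyte markers measured above the median gene in every group except wild-type Hras cells given GW0742, where 9 did. Their means over all arrays ran from 10.46 (Krt10) to 14.17 log2 units (Krt5). Of the 8 melanocyte markers 6 were above the median gene in each group, with means from 7.05 (Tyr) to 12.05 (Tyrp1). Of the 8 fibroblast markers 3 to 7 were, with means from 4.75 (Lum) to 12.53 (Vim). The comparisons share arrays: each DMSO group serves in a ligand, a virus and a genotype comparison.

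**Figure D1:**
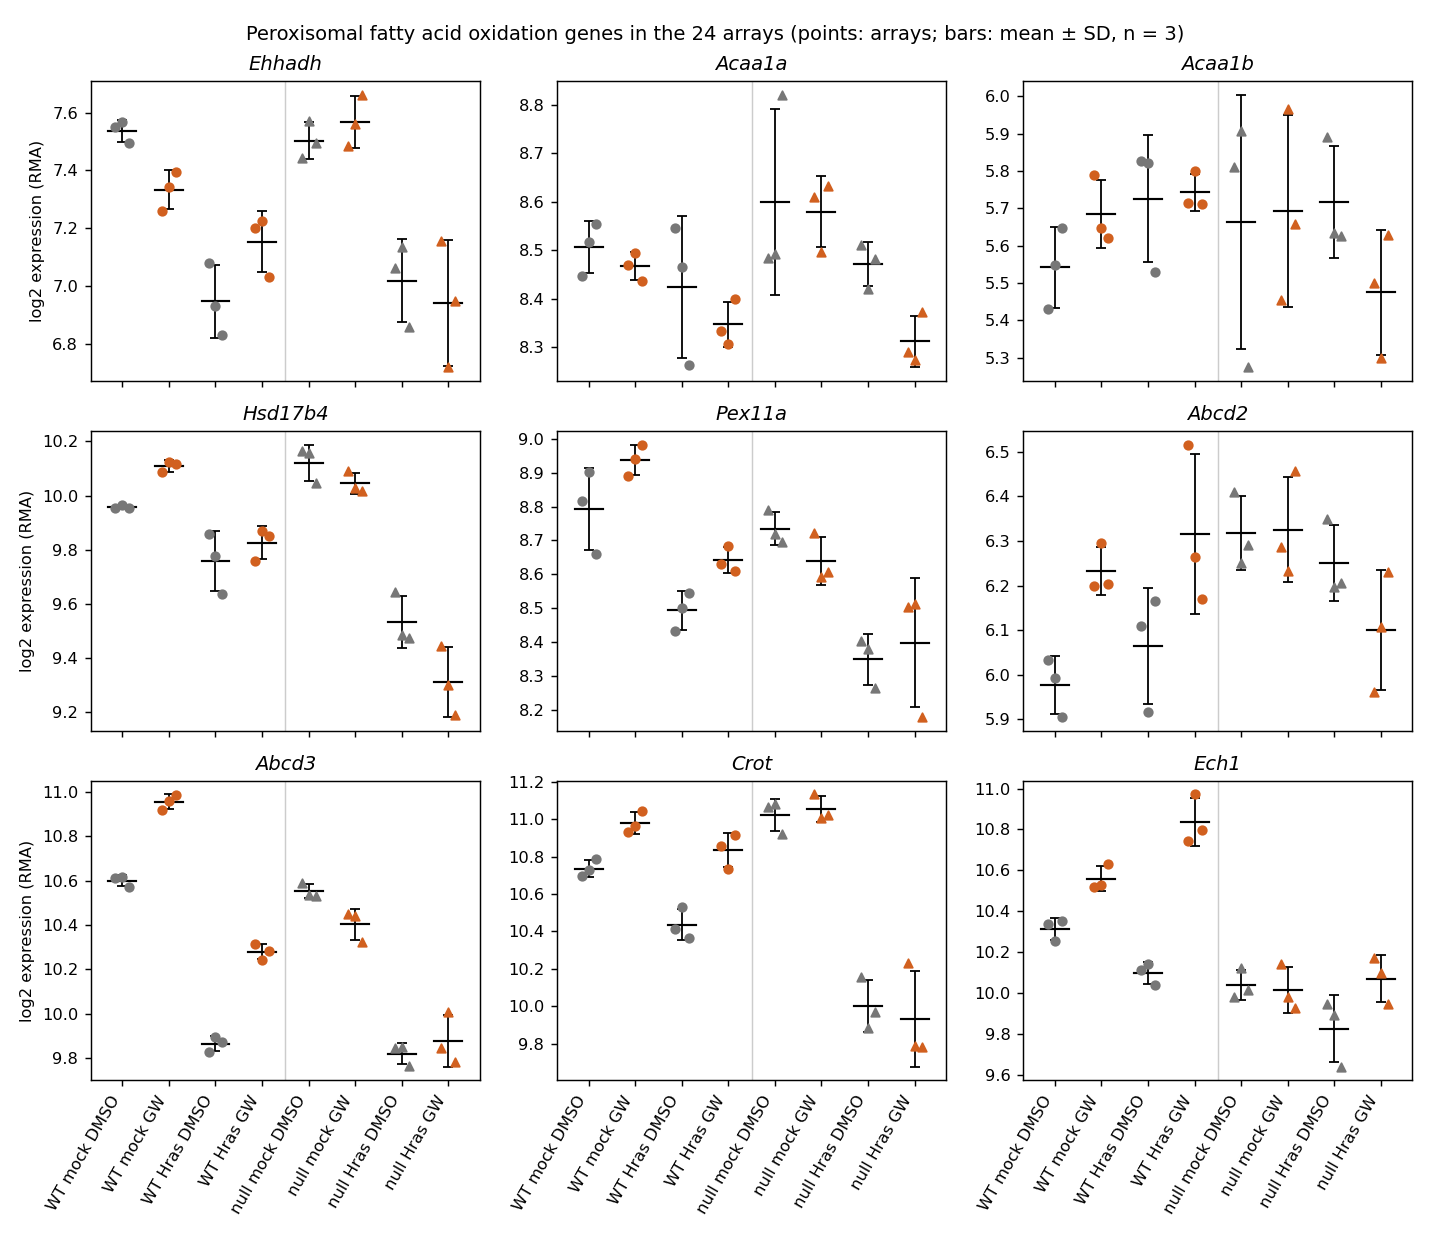
Log2 expression (RMA) of each of the 9 genes, 1 panel per gene, in the 8 groups along the x axis; points are arrays (circles wild-type, triangles null, orange GW0742, grey DMSO) and bars are the mean ± SD (n = 3), with the vertical scale set for each panel. Abcd3 in wild-type cells stood higher with GW0742 than with DMSO in both mock and Hras cells, and the Hras arrays of Abcd3, Hsd17b4 and Pex11a stood below the mock arrays of the same genotype and ligand.

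GW0742 raised the transporter gene Abcd3 without Hras in wild-type cells, and raised Abcd3, Crot and Ech1 in wild-type Hras cells. Ehhadh, Acaa1a, Acaa1b, Hsd17b4, Pex11a and Abcd2 did not pass in either. In null cells 0 of the 9 genes passed with the ligand, with or without Hras. The changes were small beside that of Pdk4, a textbook target of this receptor that encodes a kinase of glucose oxidation, which went from 6.80 to 10.94 log2 units in wild-type cells without Hras. In wild-type Hras cells Pdk4 went from 6.64 to 12.47. In null mock cells its change of 0.16 ± 0.08 did not pass (adjusted p = 0.903). In null Hras cells Pdk4 did rise, by 0.29 ± 0.08 (adjusted p = 0.0431).

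Abcd3 measured 10.61, 10.62 and 10.57 in the wild-type mock DMSO arrays and 10.92, 10.96 and 10.99 with GW0742. The arrays of these groups did not overlap, and the difference was 0.36 ± 0.05 (1.28-fold, adjusted p = 0.000287). After Hras the DMSO arrays read 9.83, 9.89 and 9.87 and the GW0742 arrays 10.31, 10.24 and 10.28. Here too every ligand array was above every vehicle array, with a rise of 0.41 ± 0.05 (1.33-fold, adjusted p = 1.7e-05). In null mock cells the DMSO arrays of Abcd3 read 10.59, 10.54 and 10.53 and the GW0742 arrays 10.45, 10.44 and 10.32. The ligand arrays were the lower ones, by -0.15 ± 0.05 (95% confidence interval -0.26 to -0.04), which did not pass (adjusted p = 0.878). In null Hras cells the difference was 0.06 ± 0.05 (-0.05 to 0.17, adjusted p = 0.670).

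The ligand effect on Abcd3 differed between the genotypes, null minus wild-type, by -0.50 ± 0.08 in mock cells (adjusted p = 0.000623). With Hras that difference was -0.36 ± 0.08 (adjusted p = 0.0136). Abcd3 was the only one of the 9 genes to pass that test in mock cells, where 0.562% of all genes passed in that direction. In Hras cells 2 of the 9 passed, Abcd3 and Ech1, against 1.21% of all genes. Fitted on the 12 Hras arrays alone, the Hras value of Abcd3 missed the threshold (adjusted p = 0.173).

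Ech1, the dienoyl-CoA isomerase gene, had the largest ligand effect of the 9 in wild-type Hras cells. In wild-type Hras cells it read 10.11, 10.14 and 10.04 with DMSO and 10.74, 10.97 and 10.80 with GW0742. The groups stood well apart, by 0.74 ± 0.08 (1.67-fold, adjusted p = 1.95e-06). In wild-type mock cells it read 10.34, 10.25 and 10.35 with DMSO and 10.52, 10.53 and 10.63 with GW0742, again without overlap. That difference of 0.25 ± 0.08 did not pass (adjusted p = 0.128). The ligand effect on Ech1 was larger with Hras than without by 0.49 ± 0.11 (adjusted p = 0.0201), 1 of the 9 genes to pass that test against 2.05% of all genes in that direction. It missed the threshold without WT mock DMSO replicate 3 (adjusted p = 0.0570), WT mock GW0742 replicate 1 (0.0611) or 2 (0.0523), WT Hras DMSO replicate 3 (0.0503) or WT Hras GW0742 replicate 2 (0.0571).

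In null cells Ech1 measured 10.04 ± 0.07 (SD, n = 3) with DMSO and 10.02 ± 0.11 with GW0742 in mock cells, and 9.83 ± 0.16 and 10.07 ± 0.11 in Hras cells. The Hras difference of 0.24 ± 0.08 did not overlap between arrays and did not pass (adjusted p = 0.0881), and its 95% confidence interval ran from 0.08 to 0.41. The null minus wild-type difference of the ligand effect on Ech1 in Hras cells was -0.49 ± 0.11 (adjusted p = 0.0262). It was lost with only the arrays compared (adjusted p = 0.187) and without WT Hras DMSO replicate 3 (0.0733), WT Hras GW0742 replicate 2 (0.0843), null Hras DMSO replicate 1 (0.0686) or 2 (0.0795), or null Hras GW0742 replicate 3 (0.0780). In mock cells the same difference was -0.27 ± 0.11 (adjusted p = 0.443).

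Crot, the carnitine octanoyltransferase gene, read 10.41, 10.53 and 10.37 with DMSO and 10.86, 10.74 and 10.92 with GW0742 in wild-type Hras cells. All ligand arrays were higher, by 0.40 ± 0.09 (1.32-fold, adjusted p = 0.0101), and the adjusted p was 0.0656 without WT Hras GW0742 replicate 3. In wild-type mock cells the difference was 0.24 ± 0.09 (adjusted p = 0.226), also without overlap of the arrays. In null cells it was 0.03 ± 0.09 in mock and -0.07 ± 0.09 in Hras cells. The genotype difference of the effect in Hras cells, -0.47 ± 0.13, did not pass (adjusted p = 0.0951).

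Among the genes that did not pass, Abcd2 had nearly the same estimate in both wild-type settings, 0.26 ± 0.09 without Hras (adjusted p = 0.157) and 0.25 ± 0.09 with it (adjusted p = 0.110). Pex11a measured 0.14 ± 0.08 and 0.15 ± 0.08, and Hsd17b4 0.15 ± 0.07 and 0.07 ± 0.07. Of the thiolase genes Acaa1a measured -0.04 ± 0.08 and -0.08 ± 0.08, and Acaa1b 0.14 ± 0.14 and 0.02 ± 0.14. The 95% confidence interval in mock cells ran from -0.20 to 0.12 for Acaa1a, which leaves out a rise of the size seen for Abcd3, and from -0.15 to 0.44 for Acaa1b, which includes it. Ehhadh read 7.55, 7.57 and 7.49 in wild-type mock DMSO arrays and 7.26, 7.34 and 7.40 with GW0742. The ligand arrays were the lower ones, by -0.21 ± 0.09 (adjusted p = 0.338), while in wild-type Hras cells the estimate was 0.21 ± 0.09 (adjusted p = 0.260). The difference of these effects, 0.41 ± 0.13, did not pass (adjusted p = 0.120).

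In counts, 1 of the 9 genes rose with GW0742 in wild-type mock cells, where 1.25% of all genes rose, and 3 of the 9 in wild-type Hras cells, where 4.46% did. The median change of the 9 was 0.15 and 0.21, against 0.00 and -0.01 over all genes. Without Hras 5 of the 9 had all ligand arrays above all vehicle arrays (11.6% of all genes) and 1, Ehhadh, had them all below (13.3%), and in wild-type Hras cells 5 of the 9 (11.3%). In null mock cells limma called 0 of the 9, with 1 at an unadjusted p under 0.05 (Abcd3, the lower value above), and 0% of all genes. In null Hras cells it called 0 of the 9, with 2 at an unadjusted p under 0.05, while 5.02% of all genes passed in either direction. These 2 were Ech1 and Hsd17b4, the second at -0.22 ± 0.07 (adjusted p = 0.0542). In null Hras cells the ligand and vehicle arrays of both did not overlap. Neither did those of Acaa1a, at -0.16 ± 0.08 (adjusted p = 0.302). The shares of all genes without overlap in null cells are not given here. In bulk RNA fewer cells of a type and less RNA per cell cannot be told apart. With the ligand the 8 fibroblast and 8 melanocyte markers had median changes of -0.09 and -0.16 in wild-type mock cells and 0.00 and 0.12 in wild-type Hras cells, while 6 of 8 melanocyte markers rose in null Hras cells (median 0.31), and their part in these values was not tested. With array weights, whose estimation stopped before it converged, 5 of the 9 rose in wild-type mock cells, while 2 rose and 4 fell in null Hras cells. Of the null Hras GW0742 arrays, replicate 2 had a weight of 4.61 and replicates 1 and 3 had 0.22 and 0.31, so the null Hras count rests mostly on 1 array. The shares of all genes called under these weights are not given here, so the weighted counts cannot be set against them.

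**Figure D2:**
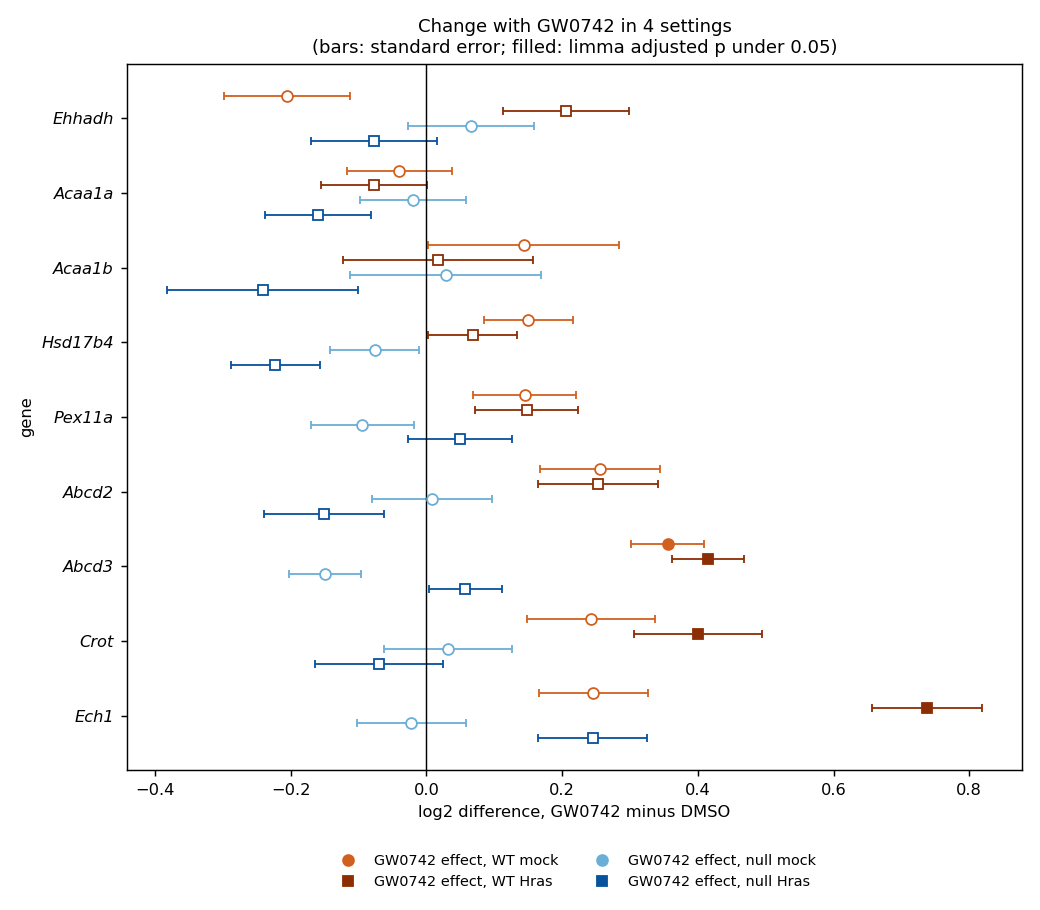
Log2 difference, GW0742 minus DMSO, of each gene (y axis) in wild-type and null, mock and Hras cells; bars are standard errors from limma (n = 3 arrays per group) and filled symbols passed at an adjusted p under 0.05. The filled symbols are Abcd3 at 0.36 and 0.41, Crot at 0.40 and Ech1 at 0.74, all in wild-type cells.

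Other genes of the organelle were read from 3 lists. In the list of other peroxisomal oxidation genes, 2 of 23 rose with GW0742 in wild-type mock cells, where 1.25% of all genes rose: Eci2, an enoyl-CoA isomerase of peroxisomes and mitochondria, by 1.45 ± 0.09 (adjusted p = 3.12e-10), and the peroxisomal thioesterase gene Acot4 by 0.58 ± 0.13. In wild-type Hras cells 5 of 23 rose, where 4.46% of all genes did, led by Eci2 (1.12 ± 0.09), Acot4 (1.06 ± 0.13), Acot5 (0.77 ± 0.10) and Acot6 (0.33 ± 0.06). The thioesterase genes of this family are near copies of each other, so their probe sets may share signal. The list medians were -0.02 and 0.01. Eci2 measured -0.09 ± 0.09 in null mock and -0.05 ± 0.09 in null Hras cells, and its ligand effect differed between genotypes by -1.54 ± 0.12 without and -1.17 ± 0.12 with Hras. In the list of peroxisome biogenesis genes, which import proteins and divide the organelle, limma called 0 of 17 in both wild-type settings (2 and 1 at an unadjusted p under 0.05). In the list of other peroxisomal enzymes and membrane proteins 1 of 19 rose in each, against the same 1.25% and 4.46% of all genes. It was Pxmp4, a peroxisomal membrane protein gene, which rose by 0.43 ± 0.06 and 0.40 ± 0.06. The catalase gene Cat, whose product breaks down the peroxide made by the oxidases, measured 0.01 ± 0.06 in both.

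With the Hras virus the same 6 genes fell in wild-type and in null cells given DMSO: Ehhadh, Hsd17b4, Pex11a, Abcd3, Crot and Ech1. That was 6 of 9 in each, where 19% of all genes fell in wild-type and 20.5% in null cells. In wild-type cells 3 to 5 of the 9 fell when any 1 of the 6 arrays compared was left out. With each array centred on its median 4 fell in wild-type and 5 in null cells, where 15.8% and 17.3% of all genes fell. The median change of the 9 was -0.22 and -0.39, against 0.02 and 0.00 over all genes.

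Abcd3 fell by the most in wild-type cells, from 10.60 ± 0.02 (SD, n = 3) to 9.86 ± 0.03, a log2 change of -0.74 ± 0.05 (adjusted p = 2.16e-10). In null cells it went from 10.55 ± 0.03 to 9.82 ± 0.05, a change of -0.73 ± 0.05. The difference between the genotypes was 0.00 ± 0.08, with a 95% confidence interval from -0.15 to 0.16. With GW0742 in both arms the change was -0.68 ± 0.05 in wild-type and -0.53 ± 0.05 in null cells.

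Ehhadh, which encodes the bifunctional enzyme for straight chains, fell from mock readings of 7.55, 7.57 and 7.49 to 7.08, 6.93 and 6.83 in wild-type DMSO cells. Every Hras array was lower, by -0.59 ± 0.09 (1.51-fold, adjusted p = 2e-05). In null DMSO cells the change was -0.49 ± 0.09 and in null GW0742 cells -0.63 ± 0.09. In wild-type cells given GW0742 it was -0.18 ± 0.09 and did not pass (adjusted p = 0.153).

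Crot fell further with Hras where Ppard was null. The wild-type DMSO arrays read 10.69, 10.73 and 10.79 in mock and 10.41, 10.53 and 10.37 in Hras cells, a change of -0.30 ± 0.09 (adjusted p = 0.0150). The null DMSO arrays read 11.06, 11.08 and 10.92 in mock and 10.16, 9.88 and 9.97 in Hras cells, a change of -1.02 ± 0.09 (2.03-fold, adjusted p = 9.56e-09). No Hras array of Crot reached a mock array in either genotype. The difference between the genotypes was -0.72 ± 0.13 (adjusted p = 0.000586). The wild-type change was lost without WT mock DMSO replicate 3 (adjusted p = 0.0554) or WT Hras DMSO replicate 3 (0.0630).

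Hsd17b4, which encodes the bifunctional enzyme for branched and very long chains, had the same order. It went from 9.96 ± 0.01 (SD, n = 3) to 9.76 ± 0.11 in wild-type DMSO cells (-0.20 ± 0.07, adjusted p = 0.0188) and from 10.12 ± 0.07 to 9.53 ± 0.10 in null DMSO cells (-0.59 ± 0.07, adjusted p = 1.66e-07). The genotype difference of the Hras effect was -0.39 ± 0.09 (adjusted p = 0.00544). Crot and Hsd17b4 were the 2 of the 9 genes to pass that test, where 8.41% of all genes passed in that direction. Both kept it in every refit with 1 array left out. The wild-type fall of Hsd17b4 was lost without WT mock DMSO replicate 2 (adjusted p = 0.0513) or WT Hras DMSO replicate 3 (0.132), and with each array centred on its median (0.0765).

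Pex11a fell by 0.30 ± 0.08 in wild-type DMSO cells (adjusted p = 0.00302) and fell by 0.39 ± 0.08 in null DMSO cells. The falls of Ech1 were smaller than those of Pex11a and lay close to the threshold. With other settings or 1 array left out its estimates ran from -0.25 to -0.17 in wild-type and from -0.27 to -0.12 in null DMSO cells. In wild-type DMSO cells it changed by -0.22 ± 0.08 (adjusted p = 0.0395), which missed the threshold without WT mock DMSO replicate 1 (adjusted p = 0.0993) or 3 (0.112) or without WT Hras DMSO replicate 1 (0.0722), 2 (0.0505) or 3 (0.131). In null DMSO cells it changed by -0.21 ± 0.08 (adjusted p = 0.0394), which was lost without null mock DMSO replicate 2 (0.158) or 3 (0.0607) or null Hras DMSO replicate 3 (0.278), and with only the arrays compared (0.0900). Centring each array also ended both calls of Ech1 (adjusted p = 0.108 and 0.126). The lowest count, 3 of the 9 falling in wild-type DMSO cells, was without WT Hras DMSO replicate 3. Acaa1a (-0.08 ± 0.08 and -0.13 ± 0.08), Acaa1b (0.18 ± 0.14 and 0.05 ± 0.14) and Abcd2 (0.09 ± 0.09 and -0.07 ± 0.09) did not pass in DMSO in either genotype.

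With GW0742 in both arms the Hras comparison in wild-type cells had 3 of the 9 genes lower, Hsd17b4 (-0.28 ± 0.07), Pex11a (-0.30 ± 0.08) and Abcd3, where 17.5% of all genes fell. Ech1 was the 1 gene of the 9 that was higher, by 0.28 ± 0.08 (adjusted p = 0.00937, and 0.0705 without WT Hras GW0742 replicate 2), where 17.7% of all genes rose. In null cells with GW0742, 7 of the 9 fell, against 20.7% of all genes: Crot (-1.12 ± 0.09), Hsd17b4 (-0.73 ± 0.07), Ehhadh, Abcd3, Acaa1a (-0.27 ± 0.08, adjusted p = 0.00747), Pex11a (-0.24 ± 0.08) and Abcd2 (-0.23 ± 0.09). Pex11a was lost without null mock GW0742 replicate 1 (adjusted p = 0.0692) or null Hras GW0742 replicate 3 (0.120). Abcd2 (adjusted p = 0.0465) was lost without null mock GW0742 replicate 1 (0.0631) or 3 (0.221) or null Hras GW0742 replicate 1 (0.201) or 2 (0.0846), with arrays centred (0.103) and with trend and robust moderation (0.0659). With only the 6 arrays compared Pex11a (adjusted p = 0.120) and Abcd2 (0.116) also missed the threshold.

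**Figure D3:**
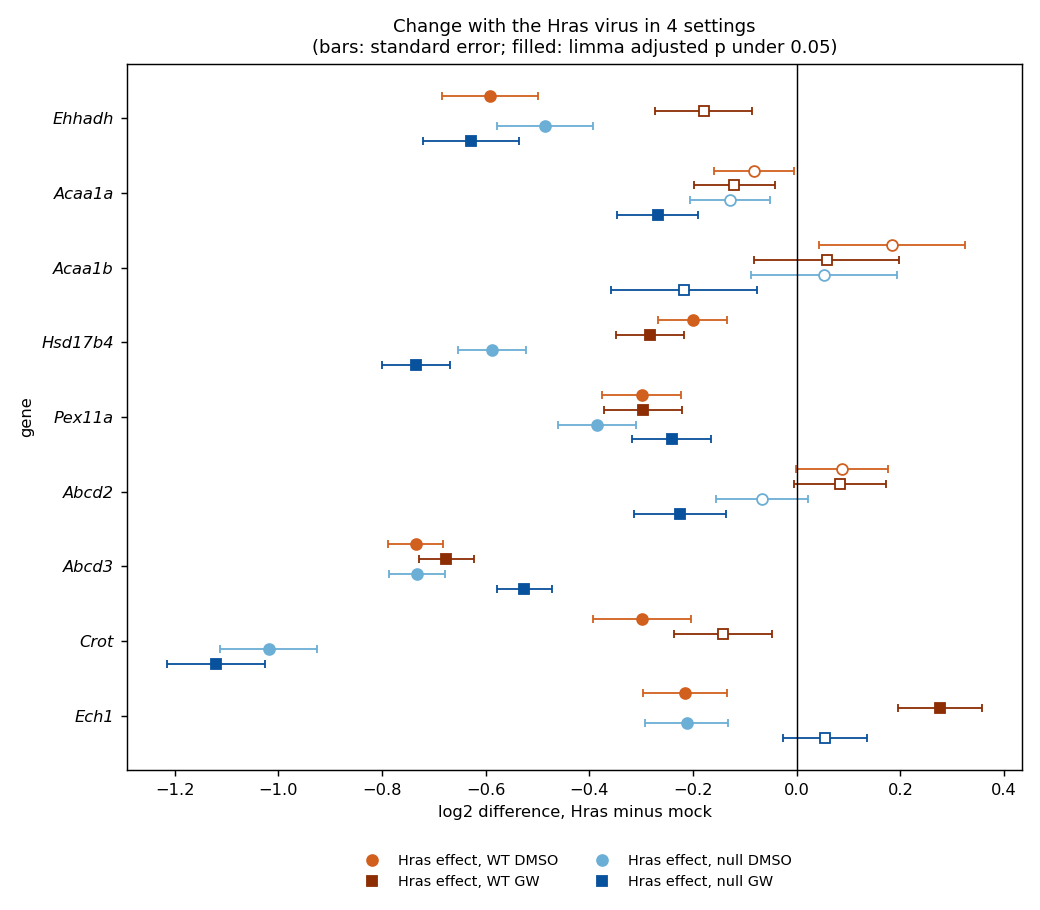
Log2 difference, Hras minus mock, of each gene (y axis) in wild-type and null cells given DMSO or GW0742; bars are standard errors from limma (n = 3 arrays per group) and filled symbols passed at an adjusted p under 0.05. Abcd3 lies between -0.74 and -0.53 in all 4 settings, Crot reaches -1.02 and -1.12 in null cells only, and Ech1 is the gene with a filled symbol above 0.

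Markers of other cells moved with the virus as well. In wild-type DMSO cells 8 of 8 fibroblast markers and 8 of 8 melanocyte markers fell, with medians of -1.20 and -1.06, and 7 of 10 keratinocyte markers fell, with a median of -0.26. The mean log2 level of the keratinocyte markers was 13.23 to 13.24 in the wild-type mock DMSO arrays and 11.92 to 12.04 in the wild-type Hras DMSO arrays, a wider gap than the median change. That of the fibroblast markers was 9.36 to 9.41 and 8.13 to 8.23 in the same arrays, and that of the melanocyte markers was 9.96 to 10.06 and 8.94 to 9.11. In null DMSO cells 5 of 8 fibroblast markers fell and 1 rose (median -0.39), 8 of 8 melanocyte markers fell (median -0.78) and 7 of 10 keratinocyte markers fell while 1 rose. The Hras effect was higher in null than in wild-type DMSO cells for 7 of 8 fibroblast markers (median 0.92), 3 of 8 melanocyte markers (median 0.24) and 1 of 10 keratinocyte markers (median 0.02). With GW0742 in both arms 8 of 8 fibroblast (median -1.06), 8 of 8 melanocyte (median -0.74) and 7 of 10 keratinocyte markers (median -0.23) fell in wild-type cells. In null cells given GW0742 the numbers that fell were 6 of 8 (median -0.46), 7 of 8 (median -0.36) and 6 of 10 (median -0.22), while 1 fibroblast marker rose, and 1 keratinocyte marker rose in each genotype. The part of these cells in the changes of the 9 genes was not tested. In the other marker lists, adipocyte and sebocyte markers had medians of 0.10 and -0.04 with Hras, leukocyte and Langerhans cell markers -0.06 and -0.10, and endothelial markers 0.15 and 0.21, in wild-type and null DMSO cells.

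Of the other peroxisomal oxidation genes, with Hras in DMSO, 11 of 23 fell and 4 rose in wild-type cells (median -0.16), and 10 fell and 4 rose in null cells (median -0.14). Over all genes 19% fell and 18.4% rose in wild-type cells, and 20.5% fell and 20.2% rose in null cells, which are the shares for the 2 lists that follow as well. With each array centred on its median 7 of the 23 fell and 4 rose in wild-type cells, where 15.8% of all genes fell and 23.2% rose. In null cells 8 fell and 5 rose with that centring, against 17.3% and 25% of all genes. Phyh, the hydroxylase gene that starts breakdown of phytanic acid, fell by 1.54 ± 0.08 in wild-type cells, from 9.67 to 8.13 log2 units. Its change in null cells was -1.01 ± 0.08. Pecr, a trans-2-enoyl-CoA reductase gene, fell by 0.70 ± 0.11 and Scp2, which carries the thiolase for branched chains, fell by 0.67 ± 0.11 in wild-type cells. Acox2, the oxidase gene for branched chains and bile acid precursors, went the other way, rising by 0.99 ± 0.09 in wild-type and 1.56 ± 0.09 in null cells. Among biogenesis genes 6 of 17 fell and 2 rose in wild-type cells (median -0.06) and 9 fell and 1 rose in null cells (median -0.22). With each array centred 5 fell and 4 rose in wild-type cells (median -0.01), and 9 fell and 2 rose in null cells (median -0.17). Without centring Pex6 (-0.48 ± 0.07), Pex13 (-0.41 ± 0.08) and Pex16 (-0.40 ± 0.08) were lower in wild-type cells. Pex7 (0.37 ± 0.08), the import receptor for a class of matrix enzymes, was higher there. Of the other peroxisomal enzymes 4 of 19 fell and 4 rose in wild-type cells, near the shares of all genes. Pxmp4 fell by 0.96 ± 0.06 and Gstk1, a glutathione transferase gene, fell by 0.64 ± 0.08, while the ether lipid genes Far1 (0.52 ± 0.06) and Agps (0.50 ± 0.07) rose.

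**Figure D4:**
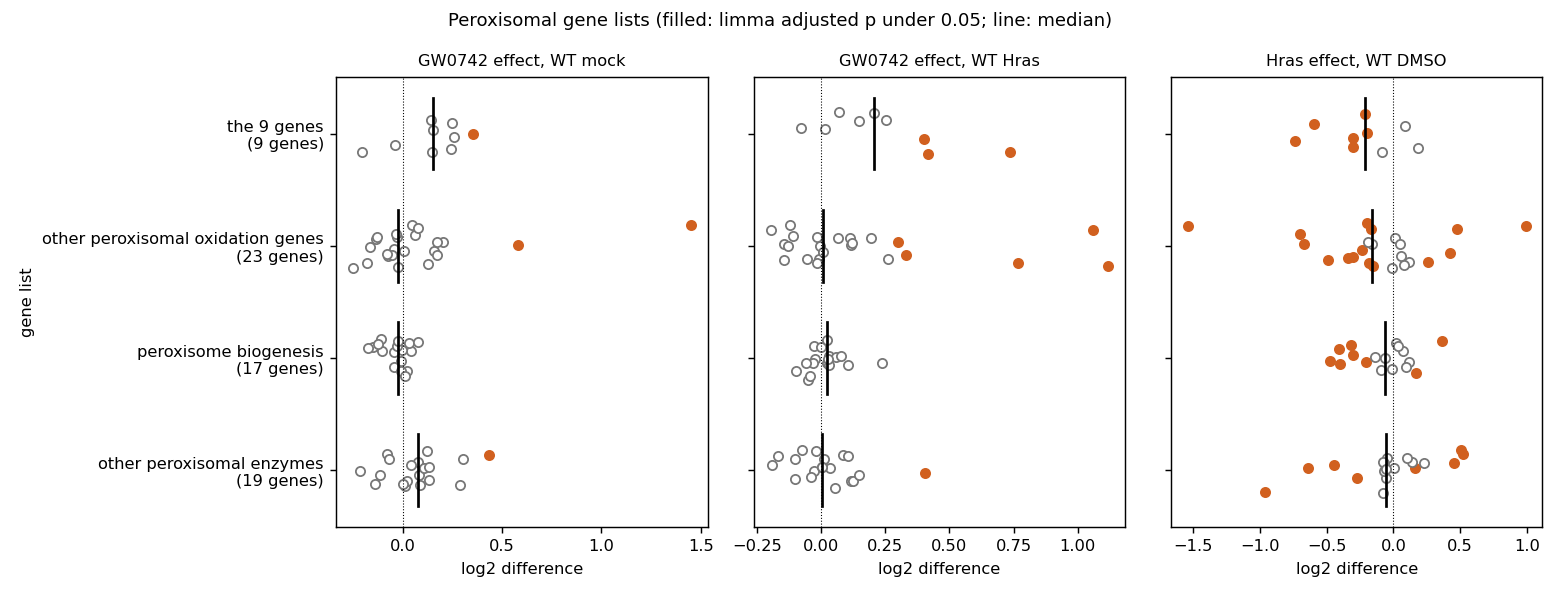
Log2 differences of single genes (points) in the 9 genes and the 3 other peroxisomal lists, for GW0742 in wild-type mock cells, GW0742 in wild-type Hras cells and Hras in wild-type DMSO cells; filled points passed limma at an adjusted p under 0.05, lines are medians, and points are spread vertically for legibility. With the ligand most points of the 3 other lists are open, with Eci2 farthest to the right at 1.45 and 1.12 and Acot4 (1.06) and Acot5 (0.77) next to it in Hras cells, while with Hras filled points lie on both sides of 0.

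Between the genotypes the differences depended on the condition. In mock DMSO cells 1 of the 9 genes was higher in null cells, Abcd2, where 4.89% of all genes were, and 1 was lower, Ech1, where 5.53% were. Abcd2 read 6.03, 5.99 and 5.91 in wild-type and 6.41, 6.25 and 6.29 in null arrays, without overlap. The difference was 0.34 ± 0.09 (adjusted p = 0.0144), and it was lost without WT mock DMSO replicate 3 (adjusted p = 0.0685) or null mock DMSO replicate 1 (0.0707). Ech1 differed by -0.28 ± 0.08 (adjusted p = 0.0307), and missed the threshold without WT mock DMSO replicate 1 (0.1005) or 3 (0.1001) or null mock DMSO replicate 1 (0.106) or 3 (0.1001). Crot, at 0.29 ± 0.09, did not pass (adjusted p = 0.0579). In these cells 7 of 8 fibroblast and 5 of 8 melanocyte markers were lower in the null arrays, with medians of -0.60 and -0.28, and their part in the differences was not tested.

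With GW0742 in mock cells 3 of the 9 genes were lower in null cells, against 10.9% of all genes: Abcd3 by -0.55 ± 0.05 (adjusted p = 1.67e-07), Ech1 by -0.54 ± 0.08 (adjusted p = 3.62e-05) and Pex11a by -0.30 ± 0.08 (adjusted p = 0.00633). These comparisons use the ligand arrays already described for wild-type cells. In the same comparison 6 of 8 fibroblast markers were lower in null cells (median -0.53), 1 of 8 melanocyte markers was lower (median -0.13) and 2 of 10 keratinocyte markers were higher (median 0.07), and their part in the differences was not tested. In Hras DMSO cells 3 of the 9 were lower in null cells, against 9.32% of all genes. Crot differed by -0.43 ± 0.09 (adjusted p = 0.00202). Ech1 differed by -0.27 ± 0.08 (adjusted p = 0.0195, lost without WT Hras DMSO replicate 1 at 0.0584 or 2 at 0.0775 and without null Hras DMSO replicate 3 at 0.152). Hsd17b4 differed by -0.22 ± 0.07 (adjusted p = 0.0188), with overlapping arrays, and was lost without WT Hras DMSO replicate 1 (0.114) or 2 (0.0643) or null Hras DMSO replicate 2 (0.0850) or 3 (0.0880). With only the 6 arrays compared 1 of these 3 genes passed, since Ech1 (0.0721) and Hsd17b4 (0.0974) did not. Of the markers 4 of 8 fibroblast (median 0.21) and 4 of 10 keratinocyte genes (median 0.08) were higher in null Hras DMSO cells and 0 of 8 melanocyte genes passed in limma (1 at an unadjusted p under 0.05), and their part was not tested.

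In Hras cells given GW0742, 5 of the 9 genes were lower in null cells and all 9 estimates were below 0 (11.2% of all genes were lower). Crot, Ech1 and Hsd17b4 had their largest genotype differences here, while those of Abcd3 and Pex11a were larger in mock cells given GW0742 and that of Abcd2 in mock DMSO cells. Crot read 10.86, 10.74 and 10.92 in wild-type and 10.23, 9.79 and 9.78 in null arrays. The null arrays were all lower and 1 of them stood above the other two, with a difference of -0.90 ± 0.09 (1.87-fold, adjusted p = 3.91e-07). Ech1 differed by -0.77 ± 0.08 (adjusted p = 4.26e-07), Hsd17b4 by -0.51 ± 0.07 (adjusted p = 5.75e-06) and Abcd3 by -0.40 ± 0.05 (adjusted p = 9.17e-06). Pex11a differed by -0.24 ± 0.08 (adjusted p = 0.0258) and was lost without WT Hras GW0742 replicate 1 (0.0566) or 2 (0.0856) or null Hras GW0742 replicate 3 (0.196), with array weights (0.0655) and with only the arrays compared (0.207). In this condition 4 of 8 melanocyte markers (median 0.23), 1 of 8 fibroblast markers (median 0.09) and 4 of 10 keratinocyte markers (median 0.08) were higher in null cells and 1 keratinocyte marker was lower, and their part was not tested.

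**Figure D5:**
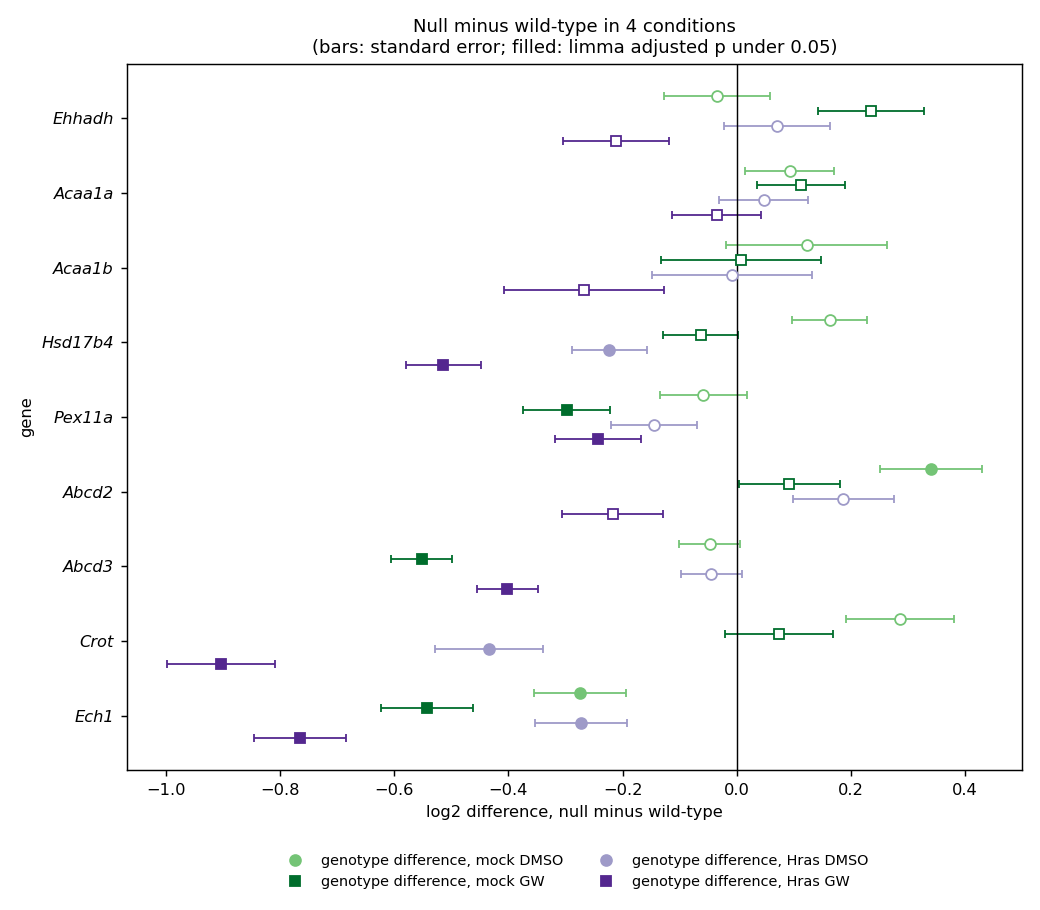
Log2 difference, null minus wild-type, of each gene (y axis) in mock and Hras cells given DMSO or GW0742; bars are standard errors from limma (n = 3 arrays per group) and filled symbols passed at an adjusted p under 0.05. In Hras cells given GW0742 the differences of Crot (-0.90), Ech1 (-0.77), Hsd17b4 (-0.51) and Abcd3 (-0.40) are filled, and Abcd2 in mock DMSO cells (0.34) is the filled symbol above 0.

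The order of the 8 group means differed between the genes. Abcd3 was highest in wild-type mock GW0742 cells (10.96), followed by wild-type mock DMSO (10.60), null mock DMSO (10.55), null mock GW0742 (10.40), wild-type Hras GW0742 (10.28), null Hras GW0742 (9.88), wild-type Hras DMSO (9.86) and null Hras DMSO (9.82). Arrays of neighbouring groups overlapped in 3 of 7 steps, the second and the last 2. Ech1 ran from wild-type Hras GW0742 (10.84) over wild-type mock GW0742 (10.56), wild-type mock DMSO (10.31) and wild-type Hras DMSO (10.10) to the 4 null groups (10.07 to 9.83), and from wild-type Hras DMSO downward each group overlapped with the next. Crot ran from null mock GW0742 (11.05), null mock DMSO (11.02) and wild-type mock GW0742 (10.98), which overlapped in turn, down to the null Hras groups, the lowest being null Hras GW0742 (9.93). Ehhadh had its 4 mock groups (7.57 to 7.33) above its 4 Hras groups (7.15 to 6.94), with overlap among neighbouring Hras groups. Hsd17b4 also had all mock groups (10.12 to 9.96) above all Hras groups (9.83 to 9.31). For Acaa1a, Acaa1b and Abcd2 every group overlapped with its neighbour in the order (7 of 7 steps), and their group means spanned 0.29, 0.27 and 0.35, near the median span of all genes (0.32).

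The remaining 6 genes spanned at least 0.5, which allowed the genes of most similar pattern to be named, by Pearson correlation of the 8 group means over 5464 other genes with the same minimum span. These values describe the arrays and carry no test, since all points share the same 8 groups. Abcd3 was most like Pex11a (r = 0.980), another of the 9, then Faah, a fatty acid amide hydrolase gene (0.980), and Alas1, which starts haem synthesis (0.979). Crot was most like Acadl, a mitochondrial acyl-CoA dehydrogenase gene (0.972). Hsd17b4 was most like Agpat3, an acyltransferase gene of phospholipid synthesis (0.981), and its correlation with Crot was 0.958. Ehhadh was most like Vps37c (0.983), Pex11a like St3gal2 (0.982) and Ech1 like Prom2 (0.958). Ech1 was the least like the other 5 of these genes, with correlations between 0.09 (Ehhadh) and 0.57 (Pex11a).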

How the data were processed

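Total RNA was hybridised to Affymetrix Mouse Gene 1.0 ST arrays, per the labels. The authors deposited expression values per probe set, and RMA is the tool named in the submitters' processing notes. The deposited values were taken as log2 from their range (2.27 to 14.8, 0 missing). Software version, genome build and annotation: not given in the sources used here. RMA by default equalises the distributions of the arrays, which hides any shift common to most transcripts.

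The platform annotation gave 1 gene symbol for 21640 of 34760 probe sets, several for 1321 and none for 11799. Each gene was read at its single-symbol probe set with the highest mean, which gave 19937 genes with no filter on dim ones, of which 19854 matched a RefSeq gene of GRCm38.p6 by identifier. Groups came from the sample titles, 3 arrays each. The model held the 8 group means (limma 3.58.1, R 4.3.3; lmFit, eBayes, 16 residual and 4.43 prior degrees of freedom), and 16 comparisons were taken: 12 between groups and 4 differences of effects. Tests were two-sided. No replicates were near-identical. On simulated data for GW0742 in wild-type mock cells over 19937 genes, 90 of 100 genes changed 1.5-fold and 100 of 100 changed 2-fold were recovered, with 5 false among 195 calls.

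The 9 genes and the lists were chosen with earlier results of these data known. Lists of 25 other peroxisomal oxidation, 20 biogenesis and 21 other peroxisomal genes had 23, 17 and 19 measured. The text names at most 4 genes of a list per comparison, those with the largest passing changes and no overlap between arrays; Cat, Pdk4 and further values of named genes stand outside this rule and were chosen after results were seen. Cell type markers were planned as levels only, and their counts from the same limma model were added later. Alternatives were centring each array, leaving out the 40% dimmest genes, trend and robust moderation, all single-symbol probe sets, only the arrays compared, a replicate block, array weights, omitting the null Hras GW0742 group and omitting each array. Figures used matplotlib 3.10.9, pandas 2.3.3 and Python 3.11.15.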

Additional observations from a re-analysis of the deposited data

Results flagged for a closer look

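The test of the difference itself set apart 6 results, where limma called the effect of the ligand or of the virus on a gene different between 2 settings (adjusted over 19937 genes). For Abcd3 the GW0742 effect, null minus wild-type, differed by -0.50 without Hras (adjusted p = 0.000623) and by -0.36 with Hras (adjusted p = 0.0136). For Ech1 it differed by -0.49 with Hras (adjusted p = 0.0262), and in wild-type cells it was higher with Hras than without by 0.49 (adjusted p = 0.0201). The Hras effect in DMSO differed, null minus wild-type, by -0.39 for Hsd17b4 (adjusted p = 0.00544) and by -0.72 for Crot (adjusted p = 0.000586). Both Ech1 values and the Abcd3 value with Hras missed the threshold under at least 1 alternative, while the others kept it. In these directions 0.562% of all genes passed for the ligand by genotype without Hras and 1.21% with Hras. For the ligand by Hras in wild-type cells 2.05% did, and for Hras by genotype in DMSO 8.41%. Groups of 3 arrays are too small for the test of single arrays that stand apart.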

How the results depend on the processing

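Of the 46 changes called for the 9 genes over the 16 comparisons, 30 stayed past the threshold under every alternative run for them and 16 lost it under at least 1. The sign changed in 0 of their alternatives. Over the 9 genes, 16 comparisons and all alternatives, 60 values of 2148 lost the threshold and 45 gained it. The counts of the 9 that follow stand without the shares of all genes called under the same alternative. A move in them may therefore be shared by all genes. With array weights, whose estimation stopped before it converged, the number of the 9 called was 5 for GW0742 in wild-type mock cells (1 in the model as reported), 6 for GW0742 in null Hras cells (0), 4 for the genotype difference in mock DMSO cells (2), 6 for the ligand difference between genotypes in Hras cells (2) and 2 for the ligand difference between Hras and mock wild-type cells (1). With only the arrays compared it was 3, for GW0742 in wild-type mock cells, 1 for the genotype difference in Hras DMSO cells (3) and 0 for the ligand difference between genotypes in Hras cells. GW0742 in null Hras cells gave 1 with arrays centred, 2 with the dimmest genes left out, 2 with trend and robust moderation and 1 with the replicate block. Without the null Hras GW0742 group the ligand difference between Hras and mock wild-type cells gave 2. The replicate block changed no other count. Deviations from the group means correlated over 0.1 in 12 of 84 pairs of same-numbered arrays (median 0.02). Among differently numbered arrays they did so in 17 of 168 pairs (median -0.01). Whether same-numbered arrays belong together is not said in the labels and cannot be told from these correlations. Leaving out 1 array at a time gave 0 to 1 for GW0742 in null Hras cells, 3 to 5 for Hras in wild-type DMSO cells (6), 0 to 2 for the genotype difference in mock DMSO cells, 1 to 3 for it in Hras DMSO cells, 1 to 4 for the ligand difference between genotypes in Hras cells, and 0 to 1 for that between Hras and mock wild-type cells. The cause of these moves was not tested. Runs with fewer arrays also had fewer degrees of freedom, and the part of that was not tested either. Ehhadh, Acaa1b and Abcd2 were among the dimmest 40% and have no value without them. Other probe sets could not be tried, because each gene had 1. The deposited values carry no measure of array background, so how far these dim genes stood above it is unknown here.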
